A study of Caenorhabditis elegans with 2 samples.

Results

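Of the 30000 peaks called on the pooled replicates of a ChIP-seq experiment for the nuclear receptor NHR-6, 436 had their summit within 200 bp of a nuclear tRNA gene (1.45%). The authors label the list of 30000 as peaks and background, so an entry, called a peak here, need not be a bound site. These 436 peaks are the tRNA gene peaks described here. They were chosen by position alone: the distance between the summit and the nearest gene annotated as tRNA had to be 200 bp or less, with 0 bp for a summit inside the gene. The annotation holds 612 nuclear tRNA genes, and 436 of these genes had at least 1 such summit (71.2%, Wilson 95% interval 67.5 to 74.7%). Both counts are 436 because 44 peaks lay near 2 tRNA genes and 44 genes had 2 peaks, with no more than 2 in either case.

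The peaks come from ChIP-seq in whole Caenorhabditis elegans, in which DNA bound to a protein is pulled down with an antibody and sequenced. The worms were L4 larvae of pooled sexes from strain OP90, which carries the unc-119(ed3) III allele and the integrated transgene wgIs90 with eGFP-tagged nhr-6. Its 2 biological replicates form 1 group, so no conditions were compared. Whole worms mix all tissues, and a peak does not show which cells it came from. Untreated or input libraries were not analysed here.

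Transfer RNA genes are short genes read by RNA polymerase III. Their promoter lies inside the transcribed gene, as an A box near the start and a B box further along, both bound by the factor TFIIIC, which brings TFIIIB to the DNA just before the gene. A run of T bases after the gene ends transcription. Worm tRNA genes occur as many identical copies, a large share of them on the X chromosome, and many lie in introns of protein-coding genes. NHR-6 belongs to the NR4A family, a group of nuclear receptors conserved in vertebrates, and is known for its role in forming the spermatheca.

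The sequences of 5 of the genes with the strongest peaks follow, with matches to the A box letters (TGGCNNAG) and the B box letters (GTTCNANNC) in capitals. All 5 hold the B box letters, and F57F5.t1, C04E7.t1 and C04A11.t1 also hold the A box letters. C33G3.t2, F46G11.t2 and F15G9.t1, also among the genes with the strongest peaks, hold the B box letters but not the A box letters. These A box letters are strict, held by 108 of all 612 genes, so a gene without them need not lack an A box. All sequences are from the RefSeq copy of build WBcel235, read 5′ to 3′ along the gene.
F57F5.t1 (Ile, V, 12002176 to 12002260, plus strand): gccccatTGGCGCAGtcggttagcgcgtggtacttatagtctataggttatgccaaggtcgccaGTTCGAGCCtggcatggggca
R11.t1 (Tyr, X, 16209769 to 16209852, minus strand): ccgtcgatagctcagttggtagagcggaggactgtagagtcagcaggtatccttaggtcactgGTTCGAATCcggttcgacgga
C04E7.t1 (Leu, X, 353255 to 353336, minus strand): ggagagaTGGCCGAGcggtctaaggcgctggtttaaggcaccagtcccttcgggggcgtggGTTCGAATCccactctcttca
ZC455.t1 (Ser, V, 12780386 to 12780467, minus strand): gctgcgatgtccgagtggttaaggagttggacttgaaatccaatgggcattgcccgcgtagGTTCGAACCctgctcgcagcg
C04A11.t1 (Leu, X, 13665555 to 13665673, plus strand): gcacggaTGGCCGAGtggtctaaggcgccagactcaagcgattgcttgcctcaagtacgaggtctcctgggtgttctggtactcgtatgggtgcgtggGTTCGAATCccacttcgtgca

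Of all 612 genes, 587 held the B box letters (95.9%) and 108 held the strict A box letters (17.6%), while 605 had the letters TTTT on their own strand within the 30 bases after the gene (98.9%). A pooled peak lay at 423 of the 587 genes with the B box letters (72.1%) and at 13 of the 25 without them (52.0%, 33.5 to 70.0%). Of the 7 genes without the T run, 1 had a peak. For the A box letters, a peak lay at 71 of 108 genes with them (65.7%) and at 365 of 504 without them (72.4%).

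A second set of sequences sets 3 genes with a strong peak beside a gene of the same amino acid that had no pooled summit within 200 bp. Each line gives the 60 bases before the gene in lower case and the gene in capitals.
F57F5.t1 with a peak (Ile, V, 12002116 to 12002260, plus strand): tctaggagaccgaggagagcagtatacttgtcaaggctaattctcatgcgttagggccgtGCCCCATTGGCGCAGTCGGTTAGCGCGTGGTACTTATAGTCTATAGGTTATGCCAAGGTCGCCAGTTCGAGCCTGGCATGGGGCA
K11C4.t1 without a peak (Ile, V, 6917406 to 6917550, plus strand): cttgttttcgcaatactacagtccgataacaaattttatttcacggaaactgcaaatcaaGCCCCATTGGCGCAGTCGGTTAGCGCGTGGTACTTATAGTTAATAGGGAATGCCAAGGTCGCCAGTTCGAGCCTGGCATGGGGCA
F46G11.t2 with a peak (Pro, X, 5801211 to 5801342, minus strand): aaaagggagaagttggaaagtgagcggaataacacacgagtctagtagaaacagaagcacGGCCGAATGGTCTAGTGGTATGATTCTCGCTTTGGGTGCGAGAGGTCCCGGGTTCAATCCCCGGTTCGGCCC
ZK970.t1 without a peak (Pro, II, 10302339 to 10302470, plus strand): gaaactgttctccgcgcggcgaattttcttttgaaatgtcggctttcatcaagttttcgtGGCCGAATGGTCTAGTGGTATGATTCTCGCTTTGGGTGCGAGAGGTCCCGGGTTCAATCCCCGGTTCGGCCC
C33G3.t2 with a peak (Lys, X, 14063946 to 14064078, minus strand): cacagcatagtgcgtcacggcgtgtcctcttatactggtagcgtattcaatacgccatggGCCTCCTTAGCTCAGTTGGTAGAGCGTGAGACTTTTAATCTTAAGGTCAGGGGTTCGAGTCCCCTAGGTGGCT
ZK994.t1 without a peak (Lys, V, 8495242 to 8495374, plus strand): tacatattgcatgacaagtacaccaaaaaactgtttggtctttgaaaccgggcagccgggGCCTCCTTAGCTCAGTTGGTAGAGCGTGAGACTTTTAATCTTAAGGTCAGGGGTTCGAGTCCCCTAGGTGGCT

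The pair of Pro genes had the same 72 bases in the gene, and the pair of Lys genes the same 73 bases, so these genes cannot be told apart by their own sequence. The 60 bases before them differed: 13 bases matched between the Pro genes and 16 between the Lys genes. The pair of Ile genes differed at 4 of 85 bases inside the gene and matched at 9 of 60 bases before it. No pair of genes that both had a peak was compared, so a part of the flanking bases in the peaks was not tested. In these pairs the genes without a peak lie in introns of unc-68 (the ryanodine receptor), clpp-1 (a mitochondrial protease subunit) and pxn-1 (a peroxidasin). The genes with a peak in these pairs are intergenic. Over all tRNA genes, a pooled peak lay at 70.7% of intronic and 72.1% of intergenic genes, so this contrast is limited to the pairs. The nearest pooled summit lay 9480 bp from K11C4.t1, 278 bp from ZK970.t1 and 5174 bp from ZK994.t1. A pooled list of 30000 peaks ends at a signal of 4.13, and a gene without a peak may have signal below that end.

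The tRNA gene peaks were mostly of above-median strength. Peaks are ranked here by the signal value that the authors' peak caller gave each peak. The median signal of the 436 peaks was 18.5 (quartiles 10.6 and 27.7, lowest 4.14, highest 101.5), against 7.98 over all 30000 pooled peaks. On a percentile scale within the pooled list, where all peaks have a median of 50, the tRNA gene peaks had a median of 83.4 and quartiles of 65.2 and 91.0. The 75th to 90th percentiles held 162 of them (37.2%) and the 90th to 99th held 123 (28.2%). The top percentile held 3 (0.688%, 0.234 to 2.00%), an interval that covers its share of all peaks.

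**Figure D1:**
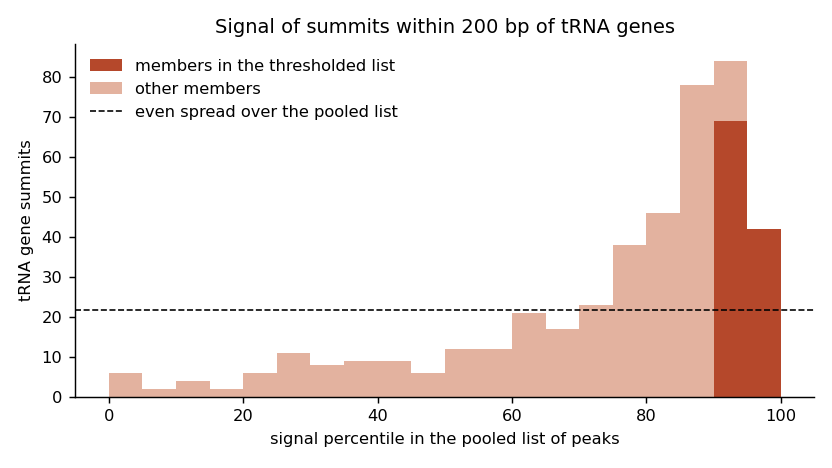
Number of tRNA gene summits (vertical axis) by signal percentile within the pooled list (horizontal axis, bins of 5), for peaks in the thresholded list (dark) and the others (light). The dashed line marks an even spread over the list; the median of the 436 summits lies at 83.4, and 3 lie above the 99th percentile.

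The authors also gave a list of 2720 peaks thresholded for reproducibility, which equals the 2720 pooled peaks of highest signal. It held 111 of the 436 tRNA gene peaks (25.5%, 21.6 to 29.8%), against 2609 of the 29564 other pooled peaks (8.82%). Over the whole pooled list 9.07% of peaks were in it. The tRNA gene peaks made up 4.08% of the thresholded list. Within that list their median signal was 35.2 (quartiles 30.1 and 40.7), against 39.1 (32.1 and 52.0) over all 2720 peaks. Peaks at tRNA genes thus sat toward the lower end of the thresholded list. The share was above that of other peaks both outside and inside protein-coding promoters. Outside the windows from 1000 bp before to 200 bp after a protein-coding gene's start, 87 of 353 tRNA gene peaks were in the list (24.6%), against 1065 of 20752 other peaks (5.13%). Inside them the shares were 24 of 83 (28.9%) for tRNA gene peaks and 1544 of 8812 (17.5%) for the others.

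The highest of the tRNA gene peaks lay at F57F5.t1, an intergenic gene for isoleucine tRNA on chromosome V. Its pooled signal was 101.5 (rank 68), with a percentile of 99.7 in replicate 1 and 99.8 in replicate 2. The summit lay 23 bp before the gene, in a window at a protein-coding gene's start. F57F5.t1 has no identical copy in the genome.

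The next strongest peaks lay at genes on the X chromosome. The peak at M02F4.t1 (Gly), shared with the neighbouring M02F4.t2 (Glu), had a signal of 72.8 and percentiles of 98.5 and 99.01 in replicates 1 and 2. The peak at R11.t1 (Tyr) had a signal of 70.8 and percentiles of 97.9 and 99.1. The peak at C04E7.t1 (Leu) had a signal of 58.0 and percentiles of 97.1 and 99.2. All 3 summits lay before the gene, by 29, 29 and 50 bp in that order.

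The remaining 8 of the 12 strongest had signals between 49.3 and 56.1. They lay at F41D9.t3 (Asn), C28G1.t1 (Glu), C33G3.t2 (Lys), F46G11.t2 (Pro), ZC455.t1 (Ser), F15G9.t1 (Ala), T10B10.t2 (Gly) and C04A11.t1 (Leu). Over all 12, the percentile ran from 91.0 to 99.7 in replicate 1 and from 93.7 to 99.8 in replicate 2, so each was strong in both. Of the 12, 10 lay on X and 2 on V, and 9 had their summit before the gene, 2 inside it and 1 after it. Of all 612 tRNA genes, 276 lie on X.

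In 3 of the 12 the tRNA gene lay in an intron. F41D9.t3 lies in sulp-3, a member of the sulfate permease family, and ZC455.t1 in ZC455.1, both on the strand opposite to the host. F15G9.t1 lies in him-4, which encodes the extracellular matrix protein hemicentin, on the host's own strand. The F15G9.t1 summit lay 34 bp after the gene and was shared with a second alanine tRNA gene, F15G9.t2. The 151 bases around that summit show it between both genes, with the bases of F15G9.t1 in capitals.
F15G9.t1 (X, 9743619 to 9743769, plus strand): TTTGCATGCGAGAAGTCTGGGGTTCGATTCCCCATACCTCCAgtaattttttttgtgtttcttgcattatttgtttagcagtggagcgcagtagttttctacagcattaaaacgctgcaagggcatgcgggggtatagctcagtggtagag

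By contrast, the ZC455.t1 summit lay inside the gene, 71 bases from its 5′ end. The 151 bases around it hold the whole gene, in capitals.
ZC455.t1 (V, 12780321 to 12780471, minus strand): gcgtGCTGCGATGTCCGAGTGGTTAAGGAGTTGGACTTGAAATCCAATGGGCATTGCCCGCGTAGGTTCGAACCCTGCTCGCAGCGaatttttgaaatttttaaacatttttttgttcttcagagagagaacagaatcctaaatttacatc

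Summits gathered on the gene itself and just before it. Of the 436 summits, 160 lay inside the nearest tRNA gene (36.7%), 179 before it (41.1%) and 97 after it (22.2%). The median position was 14 bp from the gene's 5′ end along its strand, with quartiles at 23 bp before it and 65 bp after it. The genes are short, with a median length of 72 bases and a range of 64 to 122. Within 25 bp of the gene lay 271 summits (62.2%), within 50 bp 343 (78.7%) and within 100 bp 393 (90.1%). The peaks themselves had a median width of 316 bp, more than the length of any of the genes.

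**Figure D2:**
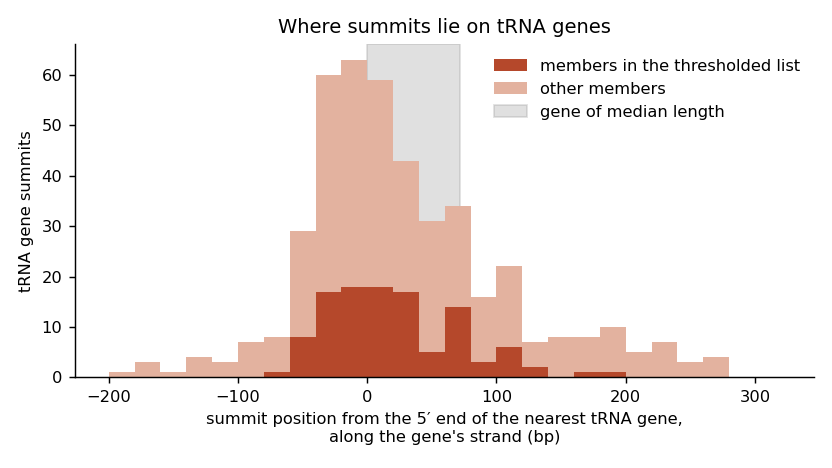
Number of tRNA gene summits (vertical axis) by position from the 5′ end of the nearest tRNA gene along its strand (horizontal axis, bp, bins of 20), for peaks in the thresholded list (dark) and the others (light). The shaded band is a gene of median length, 72 bases; the median summit lies at 14 bp and 343 of 436 lie within 50 bp of the gene.

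Peaks in the thresholded list lay closer to the gene than the other tRNA gene peaks. Inside the gene lay 51 of the 111 in the list (45.9%, 37.0 to 55.2%) and 109 of the 325 outside it (33.5%, 28.6 to 38.8%). Within 50 bp of the gene lay 102 of 111 (91.9%) and 241 of 325 (74.2%). By distance, the share in the thresholded list was 31.9% of the 160 summits inside a gene, 27.9% of the 183 up to 50 bp away and 16.0% of the 50 between 50 and 100 bp. It was 1 of 27 between 100 and 150 bp and 0 of 16 between 150 and 200 bp. Beyond the window the share did not fall steadily. It was 6 of 23 between 200 and 300 bp, 0 of 20 to 400 bp, 3 of 32 to 500 bp and 8 of 150 (5.33%) to 1000 bp.

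At the edge of the window, the summits just inside were below the median signal of the tRNA gene peaks (18.5). Those just outside lay on either side of it. Just inside lay a summit 194 bp from K07A1.t1 with a signal of 8.24 and one 189 bp from T09B4.t1 with a signal of 6.23. Both genes also had a thresholded peak that overlaps the weaker one, with signals of 37.9 and 39.3 in that order. Just outside lay a summit 207 bp from Y57G11C.t1 with a signal of 13.1 and one 208 bp from F34H10.t1 with a signal of 23.6. None of these 4 edge summits was in the thresholded list.

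The bases around the summits were compared with those of all peaks. Within 50 bp of the summit, on either strand, the B box letters stood at 37.4% of tRNA gene peaks and at 46.8% of those in the thresholded list, against 3.74% of all pooled and 4.67% of all thresholded peaks. The tRNA gene itself supplies this match, so it follows from the choice of peaks. The A box letters, which the tRNA gene can also supply, stood at 10.1% of tRNA gene peaks, against 3.66% of all pooled peaks. The letters TTTT stood at 78.2% of tRNA gene peaks, against 89.0% of all pooled peaks. The letters GAGAGA stood at 11.9% of tRNA gene peaks and 11.7% of those in the thresholded list, against 11.8% of all pooled and 27.3% of all thresholded peaks. GC content within 50 bp had a median of 46.5% at tRNA gene peaks and 48.5% at those in the thresholded list, against 37.6% over all pooled and 45.5% over all thresholded peaks. Bases of the tRNA gene fall in most of these windows, and their part in the GC content was not tested. A window at a protein-coding gene's start held 19.04% of tRNA gene peaks and 21.6% of those in the thresholded list, against 29.6% of all pooled and 57.6% of all thresholded peaks.

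Both replicates had a summit near most of the tRNA gene peaks. A replicate 1 summit lay within 200 bp of 356 of the 436 (81.7%) and a replicate 2 summit within 200 bp of 368 (84.4%). Both replicates had one at 301 (69.0%, 64.6 to 73.2%), replicate 1 alone at 55, replicate 2 alone at 67, and neither at 13. Over all 30000 pooled peaks the share with both was 33.5%. Among the tRNA gene peaks in the thresholded list it was 110 of 111, against 97.7% of all 2720. The pooled and thresholded lists were made from these same 2 replicates, so this is a description of how the peaks arose and no independent check.

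The order of strength among tRNA gene peaks was compared between the replicates. Over the 301 peaks with a summit in both, Spearman's rho between the replicates' percentiles was 0.28 and Pearson's r 0.14, against 0.53 and 0.42 over the 10045 pooled peaks with both. The points share their library and often their gene sequence, and the tRNA gene peaks span a narrower range of percentiles than the whole list. Within the thresholded list, rho was -0.0038 over the 110 tRNA gene peaks with both, against 0.28 over all 2657 with both. Pearson's r was -0.066 and -0.00051 in that order. Of the 111 tRNA gene peaks in that list, 45 were among the 2720 strongest of both replicates (40.5%, 31.9 to 49.8%) and 8 among those of neither. Over the whole list these shares were 52.8% and 5.51%.

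**Figure D3:**
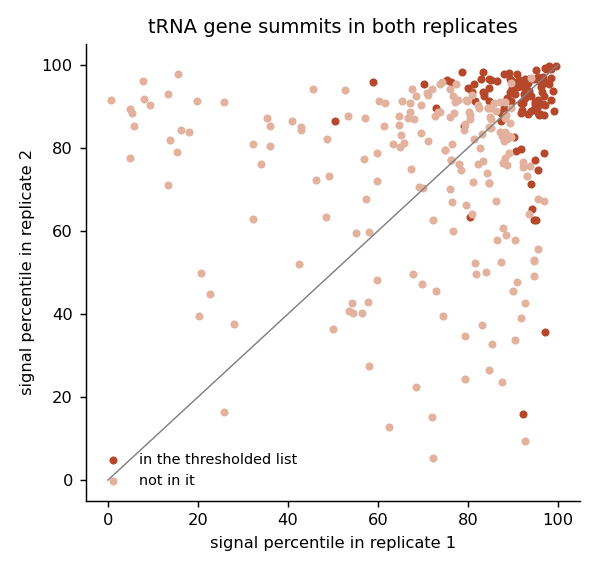
Signal percentile of the nearest summit in replicate 1 (horizontal axis) and replicate 2 (vertical axis) for the 301 tRNA gene summits with both, in the thresholded list (dark) or not (light), with the line of equal percentiles. Most points lie in the upper right, with Spearman's rho 0.28, and points with a high percentile in one replicate and a low one in the other occur on both sides.

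Among the amino acids, most shares differed by less than their counting intervals. RefSeq gives an amino acid for 607 of the 612 genes. Some genes share a peak and many share a sequence, so genes are not independent of each other and the intervals, which cover counting only, are too narrow. The pooled share ran from 10 of 20 genes for His (50%, 29.9 to 70.1%) to 12 of 13 for Cys (92.3%, 66.7 to 98.6%), with 436 of 612 over all genes (71.2%). Glu, with a peak at 37 of 41 genes (90.2%, 77.5 to 96.1%), was the amino acid whose interval lay above the share of all genes, and His the one whose interval lay below it.

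The thresholded share was highest for Cys, with 6 of 13 genes (46.2%, 23.2 to 70.9%), and lowest for Met, with 1 of 20 (5%, 0.888 to 23.6%), against 123 of 612 over all genes (20.1%). Only the interval of Cys lay outside the share of all genes, at 1 of 20 standard amino acids compared without adjustment. Of the 6 Cys genes, K01A12.t4 and K01A12.t5 shared 1 peak with a signal of 28.4. The strongest, at C37A2.t1 in an intron of cye-1, the cyclin E gene, had a signal of 46.7. The single gene for selenocysteine tRNA, K11H12.t1, had a peak outside the thresholded list, with a signal of 13.7. Of 5 genes with no amino acid given, 1 had a peak.

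**Figure D4:**
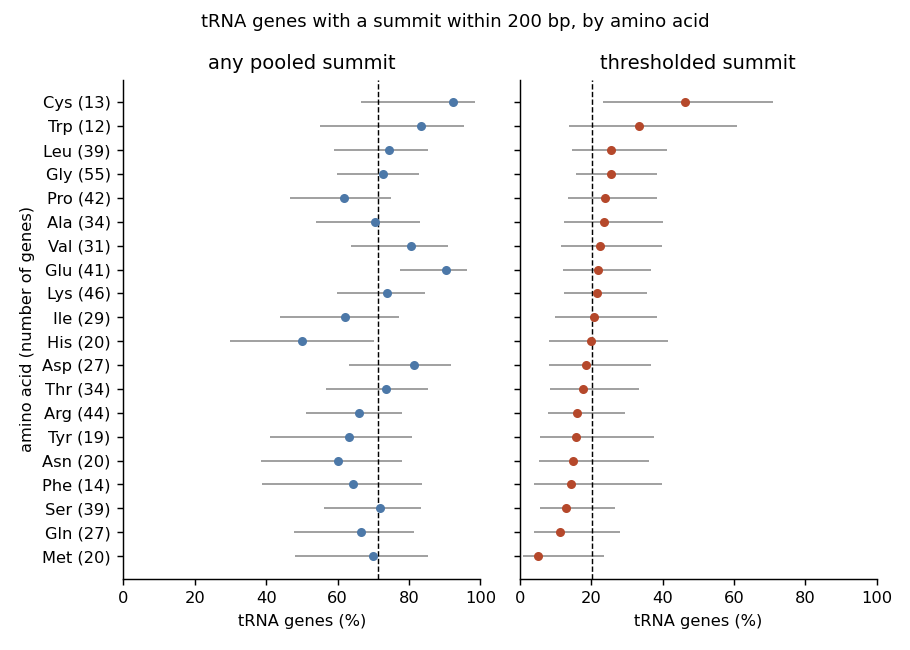
Share of tRNA genes with any pooled summit (left) and with a thresholded summit (right) within 200 bp, in percent, for the 20 standard amino acids, with the number of genes beside each. Points are shares, bars are Wilson 95% intervals and dashed lines are the shares of all 612 genes, 71.2% and 20.1%; Cys has the highest point on both sides.

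X held 276 of the 612 tRNA genes and 69 of the 123 with a thresholded peak. The strongest peak for an amino acid lay on X for most amino acids. Besides the genes already named, it lay at F08G5.t1 for Arg (39.3), Y39A1A.t1 for Thr (39.6), R04D3.t2 for Val (44.5), F28F8.t3 for Asp (32.3) and, for Gln, at H35N09.t1 and the nearer H35N09.t2, which share 1 peak (36.9). For His it lay at ZC449.t1 (43.8), for Met at E01H11.t1 (34.1), for Phe at T28B4.t1 (37.2) and for Trp at K06G5.t1 (42.9). The peaks named for Pro, Ala and Gly at F46G11.t2, F15G9.t1 and T10B10.t2 were likewise shared with a neighbouring tRNA gene of the same amino acid. Every standard amino acid thus had at least 1 gene with a thresholded peak.

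Over all their genes, intronic and intergenic tRNA genes had peaks at shares whose intervals overlap. Pooled peaks lay at 200 of 283 intronic tRNA genes (70.7%, 65.1 to 75.7%) and at 230 of 319 intergenic ones (72.1%, 66.9 to 76.7%). Thresholded peaks lay at 52 of 283 intronic genes (18.4%, 14.3 to 23.3%) and at 70 of 319 intergenic ones (21.9%, 17.8 to 26.8%), and these intervals overlap. The median signal of the strongest peak per gene was 19.8 at the intronic and 20.9 at the intergenic genes with a peak. Among genes with no identical copy, a thresholded peak lay at 4 of 66 intronic (6.06%, 2.38 to 14.6%) and 13 of 74 intergenic ones (17.6%, 10.6 to 27.8%), with a median signal of 14.4 and 22.2 at those with a pooled peak. Among genes with an identical copy it lay at 48 of 217 intronic (22.1%) and 57 of 245 intergenic ones (23.3%). The other 10 genes overlap an exon or an edge of a protein-coding gene, and 6 of them had a peak.

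Shares were also close on either strand of the host gene. Pooled peaks were found at 113 of 160 intronic tRNA genes on the host's strand (70.6%) and at 86 of 122 on the opposite strand (70.5%). Thresholded peaks lay at 28 of 160 (17.5%) and 24 of 122 (19.7%) in that order. The intronic genes lay in 219 different hosts.

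On the X chromosome, which holds 276 of the 612 genes, a pooled peak lay at 201 genes (72.8%), against 69.9% of the 336 on the autosomes. A thresholded peak lay at 69 of 276 genes on X (25%, 20.3 to 30.4%), against 54 of 336 on the autosomes (16.1%, 12.5 to 20.4%), with intervals that just meet. Among intergenic genes the thresholded shares were 50 of 180 on X (27.8%, 21.7 to 34.7%) and 20 of 139 on the autosomes (14.4%, 9.51 to 21.2%). Among intronic genes they were 18 of 95 on X (18.9%) and 34 of 188 on the autosomes (18.1%). Chromosome V had the lowest pooled share of the chromosomes, with 44 of 78 genes (56.4%, 45.4 to 66.9%). Genes with no identical copy numbered 57 of 276 on X and 86 of 336 on the autosomes. Among them a thresholded peak lay at 8 of 57 on X (14.0%) and 9 of 86 on the autosomes (10.5%). Among genes with an identical copy it lay at 61 of 219 on X (27.9%, 22.3 to 34.1%) and 45 of 250 on the autosomes (18%, 13.7 to 23.2%).

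Genes that share their sequence with other tRNA genes had a peak more often than genes with a sequence of their own. The 612 genes have 200 different sequences, the largest set holding 29 genes. Pooled peaks lay at 357 of 469 genes with an identical copy (76.1%, 72.1 to 79.8%) and at 79 of 143 genes without one (55.2%, 47.1 to 63.1%). A thresholded peak lay at 106 of 469 (22.6%, 19.05 to 26.6%) and 17 of 143 (11.9%, 7.56 to 18.2%) in that order. The intervals of the groups do not overlap in either list, though in the thresholded list their bounds are close. Genes that share a sequence or a peak are not independent of each other, so these intervals are too narrow. Among genes with the B box letters the pooled shares were 348 of 457 with an identical copy (76.1%) and 75 of 130 without one (57.7%). Among genes with a peak, the median signal of the strongest was 20.8 with an identical copy and 18.9 without one.

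The thresholded share by size of the set was 17 of 143 genes without a copy (11.9%), 15 of 82 in sets of 2 to 5 (18.3%), 21 of 100 in sets of 6 to 10 (21%), 44 of 188 in sets of 11 to 20 (23.4%) and 26 of 99 in sets of over 20 (26.3%). The neighbouring steps overlap in their intervals. Short reads from identical genes can be placed by the flanking bases alone, and the sources used here do not say how such reads were treated. The part of that treatment in these shares was not tested.

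**Figure D5:**
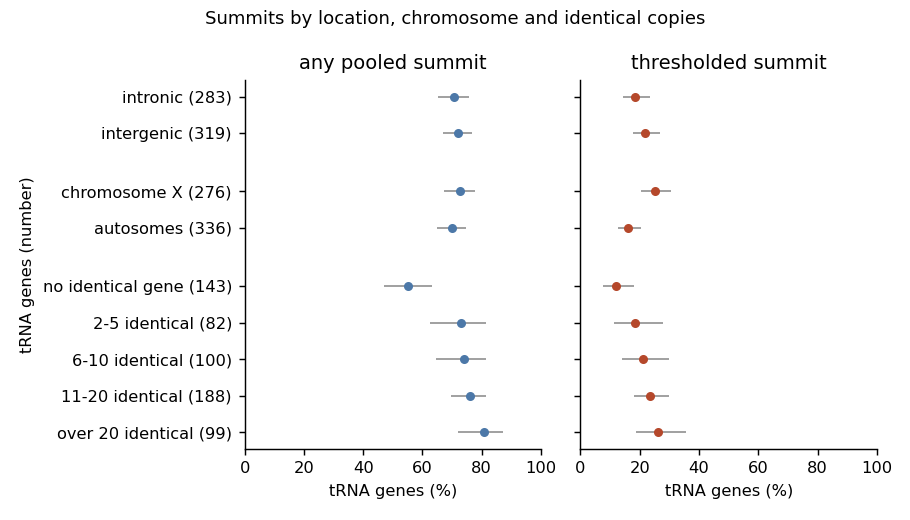
Share of tRNA genes with any pooled summit (left) and with a thresholded summit (right) within 200 bp, in percent, by location, chromosome and number of identical genes, with the number of genes beside each group. Points are shares and bars Wilson 95% intervals; among the groups plotted, genes with no identical copy have the lowest shares, 55.2% and 11.9%.

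Identical genes differed from each other in their peaks. Of the 32 sets with 5 or more identical genes, 27 had a thresholded peak at some genes and none at others, 5 had one at no gene and 0 had one at every gene. A pooled peak lay at every gene in 4 sets. The largest set, of 29 Gly genes, had a pooled peak at 25 and a thresholded peak at 9, with signals from 4.74 to 72.8. The set of 24 Pro genes that holds F46G11.t2 and ZK970.t1 had them at 15 and 7, with signals from 6.13 to 52.8. The set of 14 Lys genes that holds C33G3.t2 and ZK994.t1 had them at 9 and 4, with signals from 21 to 53.0. A set of 15 Glu genes had a pooled peak at all 15 and a thresholded one at 5. A set of 9 Met genes had a pooled peak at 7 and a thresholded one at 0. Genes with the same 72 or 73 bases thus ranged from no peak to a strong one.

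Shares by distance to the next tRNA gene and by protein-coding promoter had intervals that overlap. A thresholded peak lay at 28 of 170 genes with another tRNA gene within 500 bp (16.5%, 11.6 to 22.8%) and at 95 of 442 genes with none so near (21.5%, 17.9 to 25.6%). It lay at 24 of 112 genes whose middle was in a window at a protein-coding gene's start (21.4%, 14.8 to 29.9%) and at 99 of 500 outside such windows (19.8%, 16.5 to 23.5%).

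Among the noncoding RNA classes compared (tRNA, snoRNA, snRNA, miRNA and rRNA), tRNA genes had a pooled peak most often. Within 200 bp of a pooled peak were 436 of 612 tRNA genes (71.2%), 167 of 346 snoRNA genes (48.3%, 43.0 to 53.5%), 43 of 129 snRNA genes (33.3%), 87 of 261 miRNA genes (33.3%) and 0 of 20 rRNA genes (0 to 16.1%). The thresholded share was 123 of 612 for tRNA genes (20.1%) and 74 of 346 for snoRNA genes (21.4%, 17.4 to 26.0%), with intervals that overlap. It was 15 of 129 for snRNA genes (11.6%) and 11 of 261 for miRNA genes (4.21%). Of the peaks themselves, 111 of 436 near tRNA genes were in the thresholded list (25.5%, 21.6 to 29.8%), against 73 of 181 near snoRNA genes (40.3%, 33.5 to 47.6%), 16 of 50 near snRNA genes (32%, 20.8 to 45.8%) and 12 of 81 near miRNA genes (14.8%, 8.68 to 24.1%). Only 2 tRNA gene peaks were also within 200 bp of a snoRNA, snRNA or miRNA gene.

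Genes of the RNA polymerase III machinery and of related complexes were examined by peaks at their own starts. Polymerase I subunits, which belong to another machinery, and the small nuclear RNA activating complex are counted with them. A list of 24 genes held subunits of RNA polymerase III, subunits it shares with polymerases I and II, polymerase I subunits, TFIIIB, TFIIIC and TATA-binding protein, a repressor, small nuclear RNA activating complex subunits and the tRNA exporter, and 22 were matched. A thresholded peak lay at the start of 3 of 22, while 10.5% of all 19973 protein-coding genes had one. A pooled peak lay at 16 of 22, while 41.0% of all protein-coding genes had one. The 3 were rpac-19, a subunit shared by polymerases I and III (signal 56.9), snpc-4, of the small nuclear RNA activating complex (34.5), and rpb-8, a subunit shared by all 3 polymerases (29.9). The tRNA exporter gene xpo-3 had a peak with a signal of 27.5, just outside the list. The largest polymerase III subunits rpc-1 and rpc-2 had signals of 15.9 and 13.3, and the TFIIIC genes tftc-1 and tftc-5 had 10.2 and 8.18. The polymerase III subunit genes rpc-11 and rpc-25, the TFIIIC gene tftc-3 and the TFIIIB gene brf-1 had no pooled peak at their start. The repressor gene mafr-1 and snpc-3.1 also had none. Every polymerase I subunit and shared subunit on the list had a pooled peak, so the pooled share of the list rests largely on genes that are not specific to polymerase III.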

How the data were processed

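ChIP-seq peak lists of 2 replicates, of the pooled replicates and of the thresholded set were used as the authors deposited them, in build ce11. The signal in each list is the authors' own value per peak, used to rank and describe peaks within that list. The deposited −log10 q-value reached its highest value of 3.91 in 4093 pooled peaks. The sources used here name no aligner or peak caller, and read depth is unknown from peak lists. Gene positions came from Ensembl release 115 of WBcel235, and amino acids and sequences from RefSeq, with the same coordinates for all 612 tRNA genes. The distance from each summit to each nuclear tRNA gene was computed with Python 3.11.15, numpy 2.4.6 and pandas 2.3.3, and the assignment was checked on simulated data. Wilson intervals (scipy 1.17.1) cover counting error only. No test was run, since there was 1 group and peaks and genes are not replicates.

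The genes named are those at the 12 strongest peaks, the gene with the strongest peak for each amino acid, those at the window's edge, host genes among the 12 and comparison genes without a peak. Genes in the Cys and identical sets and in the polymerase list were named after their values were seen. Members and lists were chosen with earlier results of these data known. Alternatives changed the window, the peak list, the promoters and the counting of identical genes. Lists in build ce10 were not used.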

Additional observations from a re-analysis of the deposited data

How the results depend on the processing

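Of 53 alternatives over 9 values, 29 stayed within the counting interval (or within 1.5 times the count) and 24 moved. The 436 summits became 160 when only those inside a gene counted. The share of them in the thresholded list became 31.9% inside a gene, 7.80% with the stronger 1360 peaks of that list (against 4.53% of all peaks) and 41.7% with all peaks at the highest q-value (against 13.6%). The share of tRNA genes with a pooled summit became 65.7% at 100 bp, 79.1% at 500 bp and 57.8% outside promoter windows. It became 60.8% as a mean over the different gene sequences, each counted once by its share of genes with a summit. The share with a thresholded summit became 16.2% outside promoter windows. It became 14.4% as such a mean over sequences, 6.70% with the stronger peaks and 33.2% at the highest q-value. For intronic genes it became 11.8%, 4.24% and 31.1% under the last 3 settings. As such a mean over sequences the intergenic share was 20.25%. For intergenic genes it became 16.3% outside promoter windows, 8.78% with the stronger peaks and 34.8% at the highest q-value. Summits inside the gene were 45.9% of the peaks in the thresholded list. The share with a summit of both replicates became 54.1% at 100 bp and 76.2% by overlap of 1 bp.

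Using 1 replicate at a time gave 409 to 411 summits and 66.2 to 68.0% of genes with a summit. The median percentile was 79.2 to 81.7, and 30.8 to 34.1% of summits lay inside the gene. In an alternative chosen after seeing the data, 24.1 to 25.9% of summits were among the 2720 strongest peaks of the replicate. Those strongest peaks made up 10.2% of all peaks in replicate 1 and 9.07% in replicate 2. Genes with one of the strongest peaks made up 17.6 to 19.9% of all, 14.8 to 18.4% of intronic and 20.4 to 21.3% of intergenic genes. No paired analysis was possible because there was 1 group. Depth is unknown, the median peak is wider than the genes, identical genes share their sequence, and 2 replicates give little measure of spread.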
